A study of Rattus norvegicus with 8 samples.

Results

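The enzymes that turn cholesterol into bile acids were followed in the livers of male Goto-Kakizaki (GK) rats, an inbred lean strain that develops type 2 diabetes. They were defined as 10 named genes, Cyp7a1, Cyp8b1, Cyp27a1, Cyp7b1, Hsd3b7, Akr1d1, Akr1c14, Amacr, Acox2 and Baat, and every probe set that the platform annotation assigned to exactly 1 of these symbols was taken. This gave 13 probe sets among 31042 that were not manufacturer's controls: 3 for Akr1c14, 2 for Akr1d1 and 1 for each of the other 8 genes. The rats were 18 weeks old and were fed for 12 weeks on AIN-93G, a purified diet for rodents (control diet, 4 rats), or on AIN-93G with persimmon peel (PP) extract mixed in (persimmon peel diet, 4 rats). The dose of the extract is not given in the sources used here. RNA from whole liver of each rat was hybridised to its own 1-colour Affymetrix array, and all groups shared strain, sex, age and base diet. The strain is itself diabetic and no non-diabetic strain was analysed here, so each difference below is between 2 diets within diabetic rats. The question was how the extract changed hepatic gene expression.

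Bile acid synthesis is the main route by which the body disposes of cholesterol. In the classic pathway, Cyp7a1 hydroxylates cholesterol in the endoplasmic reticulum and sets the rate of the whole pathway, and the alternative pathway starts with the mitochondrial enzyme Cyp27a1 and continues with Cyp7b1. Both feed a shared series of steps: Hsd3b7 oxidises the steroid ring, Cyp8b1 adds the hydroxyl group that leads to cholic acid, Akr1d1 and Akr1c14 reduce the ring, Amacr and Acox2 prepare and shorten the side chain in peroxisomes, and Baat joins the product to taurine or glycine. Bile acids returning from the gut bind the nuclear receptor Nr1h4 (FXR), which induces the repressor Nr0b2 (SHP) and so lowers Cyp7a1 and Cyp8b1.

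Promoter sequences from RefSeq (build GRCr8, 250 bases before to 50 bases after the gene start) were matched for 7 of the 10 genes, Hsd3b7, Amacr, Baat, Cyp8b1, Cyp27a1, Acox2 and Akr1c14. Cyp7a1, Cyp7b1 and Akr1d1 were not matched. Each was searched on both strands for AGGTCA, the hexamer that many nuclear receptors of this pathway recognise, for paired copies of it, for CAAGGTCA, the longer form bound by Nr5a2 (LRH-1), and for the clock motifs TTATGTAA, TTATGCAA and CACGTG. Of these, CAAGGTCA contains AGGTCA, so a match to the longer is also a match to the shorter. The promoters of Cyp27a1 (chr9:83713282-83713581, plus strand) and Akr1c14 (chr17:71083135-71083434, minus strand) are shown 5′ to 3′ because the first held most of the matches and the second belongs to the only member gene with a probe set called between the diets. Capitals mark the matches.
Cyp27a1: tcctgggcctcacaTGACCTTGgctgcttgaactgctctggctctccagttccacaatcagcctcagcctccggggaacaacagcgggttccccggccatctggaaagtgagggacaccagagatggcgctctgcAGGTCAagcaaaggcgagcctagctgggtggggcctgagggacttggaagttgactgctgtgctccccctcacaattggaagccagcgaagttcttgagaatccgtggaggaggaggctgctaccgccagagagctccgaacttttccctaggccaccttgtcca
Akr1c14: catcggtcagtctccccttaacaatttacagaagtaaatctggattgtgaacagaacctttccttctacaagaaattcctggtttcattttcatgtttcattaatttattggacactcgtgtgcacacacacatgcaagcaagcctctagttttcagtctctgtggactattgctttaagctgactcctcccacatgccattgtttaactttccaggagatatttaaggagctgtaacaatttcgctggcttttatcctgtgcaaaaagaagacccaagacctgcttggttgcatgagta

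The Cyp27a1 promoter held CAAGGTCA on the opposite strand from base -236 and a further AGGTCA from base -115, counted from the gene start. Amacr held 1 AGGTCA from base -201. The other 5 promoters, that of Akr1c14 included, held no match to any of the motifs. Among all 33469 promoters of this length, 16.2% held AGGTCA, 1.52% held CAAGGTCA, 0.893% held TTATGTAA, 0.863% held TTATGCAA and 6.42% held CACGTG. A pair of AGGTCA copies in the same direction spaced by 1 base occurred in 0.0538% of promoters, one spaced by 4 bases in 0.00598%, and an inverted pair spaced by 1 base in 0.0269%, with 0 of the 7 members matching any of these 3 arrangements. G and C made up 40.7% of the Akr1c14 promoter and 43% of the Baat promoter, against 53 to 66% in the other 5 and a median of 51.7% over all promoters.

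Nearly all probe sets of these enzymes were bright in every liver. Signals are MAS5 units on a linear scale, and by the mean of log2 signal over the 8 arrays 12 of the 13 member sets ranked above the 92nd percentile of all probe sets, from the 92.4th for Cyp7a1 to the 99.6th for Baat. Signal also depends on the probes, so levels were not compared between genes. The exception was Cyp7b1, whose set 1388188_at ranked at the 38.2nd percentile and did not pass the filter on low signal, so 12 sets in 9 genes were tested. Hepatocyte markers were bright, with Ahsg at 12062 ± 393 in control and 11353 ± 442 in persimmon peel rats (SD, n = 4 each), and the highest-signal markers of other cell types were Epcam (cholangiocytes, 208 and 206), Clec4f (Kupffer cells, 1679 and 1953), Lyve1 (sinusoidal endothelium, 1714 and 1451), Col3a1 (stellate cells, 600 and 545), Ptprc (leukocytes, 184 and 155) and Hbb (erythrocytes, 5618 and 5163). Array medians lay between 33.2 and 39.2 units and the pairwise Pearson correlation of arrays ran from 0.967 to 0.986 over tested sets. The beta-actin middle to 3' ratio, a control for RNA integrity and labelling, was lower in every persimmon peel array (-0.92 to -1.18 in log2) than in every control array (-0.75 to -0.78), with persimmon peel arrays 1 and 3 lowest. The 5' end of beta-actin against its 3' set was also apart between diets (-1.68 ± 0.12 and -1.97 ± 0.22 in log2, SD, n = 4 each), by little, with persimmon peel arrays 3 and 4 lowest. The same controls on GAPDH overlapped between diets, at -0.58 ± 0.03 and -0.59 ± 0.05 for the middle and at -0.29 ± 0.10 and -0.43 ± 0.08 for the 5' end (log2 against the 3' set, control then persimmon peel, SD, n = 4 each).

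**Figure D1:**
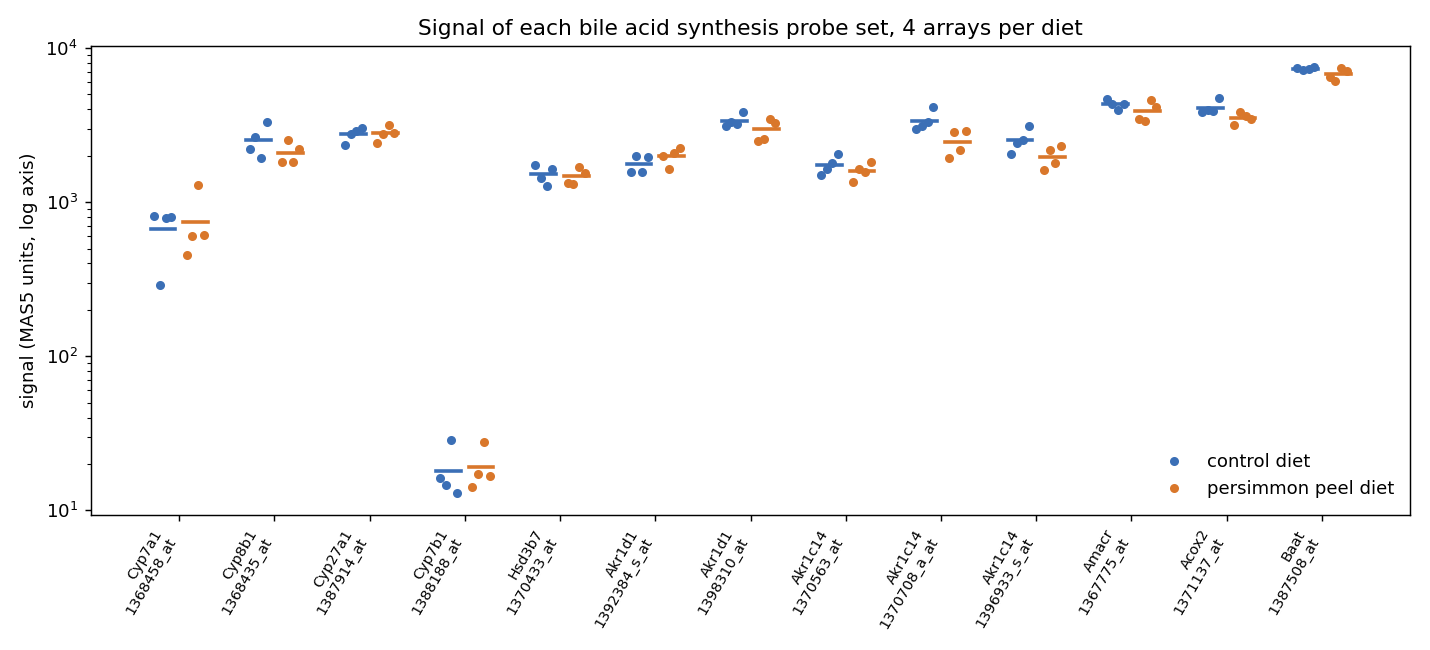
Signal (MAS5 units, log axis) of the 13 probe sets of the bile acid synthesis genes, with each point 1 array and each bar the mean of the 4 arrays of a diet. The 2 diets overlapped in every set but Akr1c14 1370708_a_at, and Cyp7b1 lay between 12.9 and 28.8 units, below the lowest mean signal tested (34.4).

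Across the members, 1 of 12 tested probe sets, Akr1c14 1370708_a_at, was lower on the persimmon peel diet and 0 were higher (limma, two-sided, Benjamini-Hochberg adjusted p under 0.05 over all tested sets). At an unadjusted p under 0.05 the number was 3 of 12, or 25%, against 19.6% of all tested sets. Over the whole array the same rule called 4.53% of 15521 sets lower and 0.425% higher, and the members' share of 8.33% is a single set. The median log2 difference, persimmon peel minus control diet, was -0.15 over the 12 sets, 9 of them negative, and -0.0071 over all tested sets, of which 51.4% were negative. Sets of the same gene are not independent. On the brightest set of each gene, 7 of 9 members were negative, or 77.8%, against 47.4% of all genes. At an unadjusted p under 0.05 there were 2 of these 9, or 22.2%, against 16.3% of all genes. Under quantile normalization the median over the 12 sets was -0.091 with 8 negative, and under median centring -0.17 with 10 negative. In 1 of the 12 sets (8.33%) the arrays of the diets did not overlap, which over all tested sets and in either direction held for 12.9%. The summed signal of 9 hepatocyte markers moved the same way, lying between 89713 and 96268 units in control rats and between 82243 and 87576 units in persimmon peel rats, with 0 of the 9 called alone. These sums are of the deposited signals without quantile normalization, and neither hepatocyte number nor RNA per cell was measured. In whole liver, fewer hepatocytes and less RNA per hepatocyte cannot be told apart from each other or from differences in signal level between arrays. The part of these markers and of the beta-actin ratio in the members' values was not tested.

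**Figure D2:**
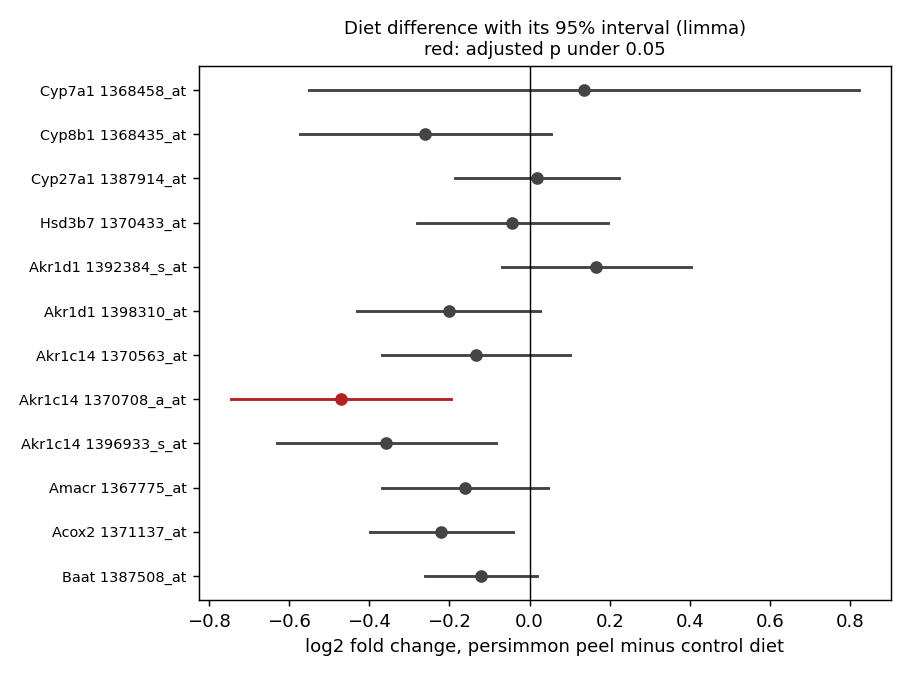
Log2 difference, persimmon peel minus control diet, for the 12 tested probe sets, with limma's 95% interval as a line. Only Akr1c14 1370708_a_at passed the adjusted threshold, and the interval of Cyp7a1, from -0.55 to 0.82, is the widest.

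Cyp7a1, which catalyses the first and rate-setting step, varied more between animals than any other member and did not pass between diets. Its signals were 813, 291, 783 and 796 in control rats 1 to 4, and 456, 603, 1286 and 608 in persimmon peel rats 1 to 4. The diets overlapped almost fully, with control rat 2 the lowest of the 8 and persimmon peel rat 3 the highest, 4.42-fold apart. The means were 671 ± 254 and 738 ± 372 (SD, n = 4 each), and the log2 difference was 0.14 (SE 0.32, 95% interval -0.55 to 0.82, limma adjusted p = 0.857). As a ratio to control the interval ran from 0.683 to 1.77, so neither the direction nor the size of a change within that span was settled with 4 rats per diet. The interval is not a limit of detection, and a change somewhat outside it could also have gone uncalled. Its direction rested on single rats: it was -0.23 without control rat 2 and -0.17 without persimmon peel rat 3. The residual SD within diets, 0.69 in log2, stood at the 99.6th percentile of tested sets, whose median was 0.19.

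The pattern of Cyp7a1 over the 8 arrays was most like that of Bmerb1 (Pearson r = 0.96), Hhipl1 (r = 0.95), Rhof (r = 0.93) and Unk (r = 0.93), the highest values among the brightest sets of 9165 other genes. These are descriptions over 8 arrays with no test, since the genes were picked for the value, and their mean signals of 35.1 to 63.7 lay near the lowest tested level of 34.4. In each of the 4 genes persimmon peel rat 3 was the highest, and in Bmerb1, Hhipl1 and Rhof control rat 2 was the lowest, as for Cyp7a1.

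Cyp8b1, whose hydroxylation decides how much cholic acid is made, had signals of 2215, 2645, 1940 and 3333 in control rats 1 to 4 and 1809, 2541, 1822 and 2199 in persimmon peel rats 1 to 4. Persimmon peel rats 1 and 3 lay below all control rats, and rats 2 and 4 lay within their range. The log2 difference of -0.26 (SE 0.15, 95% interval -0.57 to 0.05) did not pass (limma adjusted p = 0.351), and it was -0.12 without control rat 4, the highest of the 8. It was -0.38 (limma adjusted p = 0.171) without control rat 3 and -0.36 (limma adjusted p = 0.153) without persimmon peel rat 2. Without persimmon peel rats 1 and 3 together, a choice made after seeing the data that takes out its 2 lowest values, it was -0.070.

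The alternative pathway showed no difference that this design could detect. Cyp27a1, the mitochondrial sterol hydroxylase, gave 2342, 2767, 2907 and 3023 in control rats 1 to 4 and 2431, 2757, 3176 and 2821 in persimmon peel rats 1 to 4, so both diets covered nearly the same range. Its log2 difference was 0.019 (SE 0.095, 95% interval -0.18 to 0.22, limma adjusted p = 0.937), an interval of 0.88 to 1.17 as a ratio to control, and it was -0.0019 with median centring. Cyp7b1, the oxysterol hydroxylase that follows it, gave 16.1, 14.6, 28.8 and 12.9 units in control rats 1 to 4 and 14.2, 17.3, 27.7 and 16.8 units in persimmon peel rats 1 to 4. These signals are below 34.4, the lowest mean signal tested, so Cyp7b1 was not among the sets tested. With no filter on signal its log2 difference was 0.095 (SE 0.36, limma adjusted p = 0.944).

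Hsd3b7, the dehydrogenase that acts on the hydroxylated sterols of both pathways, gave 1739, 1430, 1269 and 1641 in control rats 1 to 4 and 1334, 1305, 1696 and 1556 in persimmon peel rats 1 to 4. All persimmon peel rats fell within the control range. The log2 difference was -0.043 (SE 0.11, 95% interval -0.28 to 0.20, limma adjusted p = 0.869), and it was 0.0063 under quantile normalization.

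Akr1c14, the 3-alpha-hydroxysteroid dehydrogenase of rat liver that follows Akr1d1 in reducing the ring, held the only call among the members. In set 1370708_a_at the signals were 2977, 3107, 3316 and 4133 in control rats 1 to 4 and 1937, 2832, 2176 and 2880 in persimmon peel rats 1 to 4. Every persimmon peel rat lay below every control rat, with rats 1 and 3 the lowest and rats 2 and 4 just under the control range. The set was lower by a log2 difference of -0.47 (SE 0.13, 95% interval -0.75 to -0.20, limma adjusted p = 0.0497), from 3383 ± 519 to 2456 ± 472 (SD, n = 4 each), so that it fell by 27.8% in the fitted ratio. This call sat at the edge of the threshold and was kept in 4 of 17 other settings. It was lost under quantile normalization (-0.42, adjusted p = 0.0971), with no signal filter (adjusted p = 0.127), and without persimmon peel rat 1 (-0.36, adjusted p = 0.156) or control rat 4 (-0.37, adjusted p = 0.159). It was also lost without control rat 1, 2 or 3 (adjusted p = 0.0568, 0.0652 and 0.0974), without persimmon peel rat 3 (adjusted p = 0.126), and without persimmon peel rats 1 and 3 together (-0.23, adjusted p = 0.409). These 2 rats had the lowest beta-actin middle to 3' ratio but also the lowest values of this set, so leaving them out had to shrink the difference. Calls over all sets fell from 769 to 77 in that fit, and the part of RNA integrity was not tested by it.

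The other 2 sets of Akr1c14 had smaller values of the same sign. Set 1396933_s_at went from 2533 ± 440 to 1977 ± 328 (SD, n = 4 each), a log2 difference of -0.36 (SE 0.13, limma adjusted p = 0.131), with persimmon peel rats 1 and 3 below all control rats and rats 2 and 4 among them. Set 1370563_at gave 1492, 1645, 1791 and 2064 in control rats 1 to 4 and 1348, 1630, 1564 and 1828 in persimmon peel rats 1 to 4, with 1 persimmon peel rat below the control range. Its log2 difference was -0.13 (SE 0.11, limma adjusted p = 0.538), and it was -0.050 without control rat 4 and -0.056 without persimmon peel rat 1. It was -0.21 without control rat 1 and -0.20 without persimmon peel rat 4. Akr1c14 belongs to a family of closely related genes, and which relatives each set also detects was not analysed here.

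Akr1d1, the enzyme that reduces the steroid double bond before Akr1c14 acts, was also measured by more than 1 set. Set 1398310_at gave 3119, 3323, 3225 and 3868 in control rats 1 to 4 and 2510, 2585, 3465 and 3283 in persimmon peel rats 1 to 4, a log2 difference of -0.20 (SE 0.11, limma adjusted p = 0.315). Set 1392384_s_at gave 1563, 1990, 1569 and 1972 in control rats 1 to 4 and 1983, 1644, 2081 and 2251 in persimmon peel rats 1 to 4, a log2 difference of 0.17 (SE 0.11, limma adjusted p = 0.431). Neither passed, and they had opposite signs.

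Within an array, the brighter Akr1d1 set exceeded the dimmer by 0.94 ± 0.13 in log2 in control and by 0.57 ± 0.17 in persimmon peel rats (SD, n = 4 each; two-sided exact permutation p = 0.0286, the smallest value for 4 against 4, and 0.0381 adjusted over 4 pairs of sets). The groups were separated by little, with control rat 2 at 0.740 and persimmon peel rat 3 at 0.735, and under quantile normalization the exact p was 0.0571. For Akr1c14, 1370708_a_at minus 1370563_at went from 0.95 ± 0.06 to 0.61 ± 0.14, and 1396933_s_at minus 1370563_at from 0.53 ± 0.06 to 0.31 ± 0.09 (SD, n = 4 each; exact permutation p = 0.0286 and adjusted 0.0381 for each, with no overlap). The third Akr1c14 pair, 1370708_a_at minus 1396933_s_at, overlapped between diets (0.42 ± 0.07 and 0.31 ± 0.05, SD, n = 4 each; exact p = 0.0571). These pairs were tested after their values had been seen. The 2 separated Akr1c14 pairs moved between diets by -0.34 and -0.22, and the Akr1d1 pair by -0.37. The beta-actin middle to 3' difference moved by -0.30 and its 5' to 3' difference by -0.28, both with no overlap. The same 2 differences of GAPDH moved by -0.0063 and -0.14, each with overlap between the diets. The Akr1d1 and Akr1c14 pairs are brighter minus dimmer, and where their sets lie along the transcripts was not examined. Neither their sign nor their size can therefore be compared with the controls. The part of RNA integrity or labelling in the pairs was not tested.

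**Figure D3:**
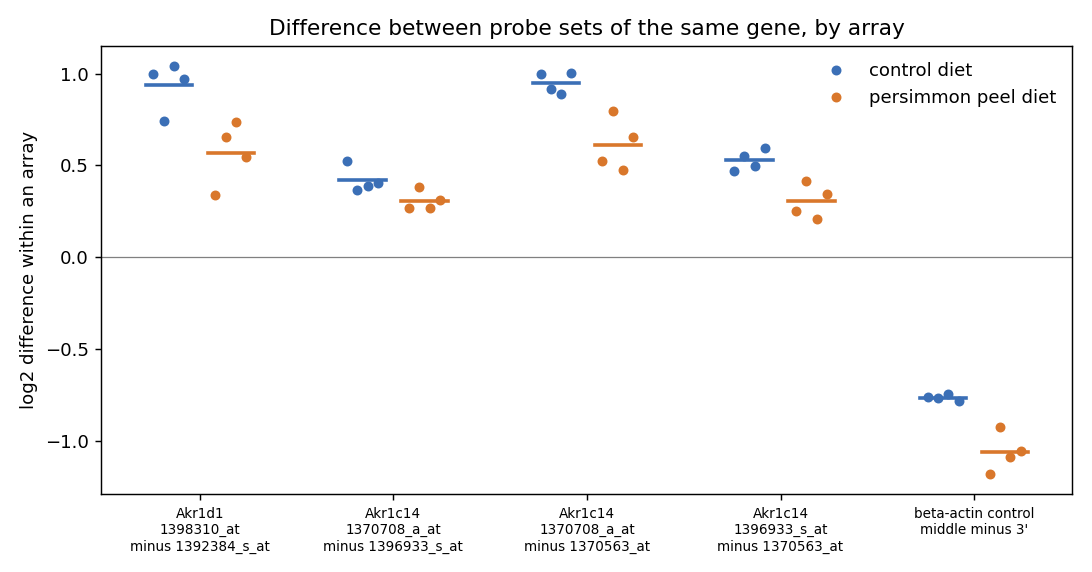
Log2 difference between 2 probe sets of the same gene within each array, with points for arrays and bars for the mean of 4. The 1 pair of Akr1d1 and the 3 pairs of Akr1c14 are brighter minus dimmer, and the beta-actin control pair is middle minus 3'. The diets did not overlap in the Akr1d1 pair, in both Akr1c14 pairs against 1370563_at, and in beta-actin, where they went from -0.76 to -1.06.

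In the peroxisomal and final steps 0 of 3 tested sets passed, with log2 differences between -0.22 and -0.12. Acox2, the oxidase that starts side chain shortening, gave 3817, 3957, 3903 and 4754 in control rats 1 to 4 and 3171, 3832, 3614 and 3467 in persimmon peel rats 1 to 4. Of the persimmon peel rats, 3 lay below every control rat, and rat 2 lay just above the lowest control. Its log2 difference was -0.22 (SE 0.08, 95% interval -0.40 to -0.04), with an unadjusted limma p of 0.019 and an adjusted p of 0.154. Amacr, the racemase that sets the side chain for oxidation, gave 4697, 4346, 3932 and 4338 in control rats 1 to 4 and 3470, 3341, 4611 and 4156 in persimmon peel rats 1 to 4, so that rats 1 and 2 lay below the control range and rats 3 and 4 within it (log2 difference -0.16, SE 0.10, limma adjusted p = 0.379). Without persimmon peel rat 2 the difference was -0.093, and without rat 3 it was -0.25.

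Baat, which attaches the amino acid in the final step, gave 7392, 7151, 7341 and 7502 in control rats 1 to 4 and 6476, 6140, 7374 and 7092 in persimmon peel rats 1 to 4. Persimmon peel rats 1, 2 and 4 lay below all control rats and rat 3 within their range. The log2 difference was -0.12 (SE 0.07, 95% interval -0.26 to 0.02, limma adjusted p = 0.33). It was -0.018 under quantile normalization, -0.076 without persimmon peel rat 2 and -0.16 without persimmon peel rat 3. The control rats were close together, with a coefficient of variation of 1.99% against 8.32% on the persimmon peel diet. Over both diets the residual SD of Baat, 0.09 in log2, was at the 6.06th percentile of tested sets, at the other end of the scale from Cyp7a1.

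Single rats carried much of the variation over the members. Control rat 4 had the highest value in 7 of the 12 tested sets and lay above the 8-array mean in all 12, and persimmon peel rat 1 had the lowest value in 6 and lay below the mean in 11. The 12 sets stand for 9 genes, and all 3 Akr1c14 sets are in both the 7 and the 6. The median of the 12 centred log2 values was 0.30 in control rat 4 and -0.28 in persimmon peel rat 1, against 0.09 and -0.05 over all tested sets on the same arrays. Persimmon peel rats 3 and 4 lay above the mean in 7 and 9 sets, like control rats 1, 2 and 3 with 6, 9 and 8, while persimmon peel rat 2 did so in 2. The members' medians in persimmon peel rats 2, 3 and 4 were -0.07, 0.10 and 0.03, against -0.08, 0.14 and -0.03 over all tested sets. The counts of persimmon peel rats 2 and 3 therefore cannot be told apart from the level of their whole arrays.

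**Figure D4:**
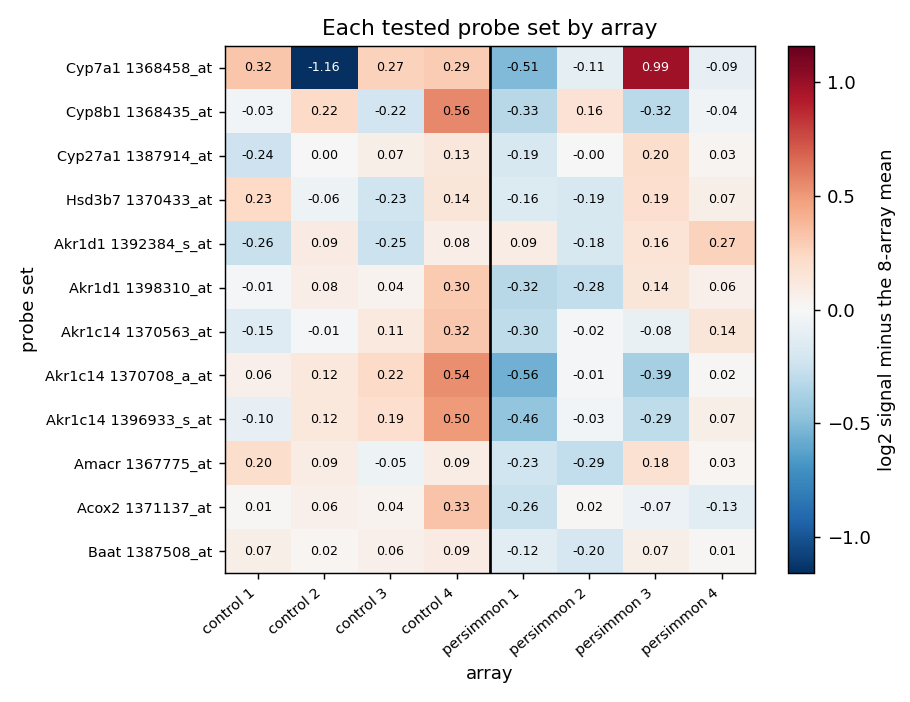
Log2 signal of each tested probe set minus its mean over the 8 arrays, red above and blue below the mean, with 1 column per array and control rats left of the line. Control rat 4 is above the mean in all 12 sets, persimmon peel rat 1 is below it in 11, and the extremes of Cyp7a1 are control rat 2 (-1.16) and persimmon peel rat 3 (0.99).

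Among other genes of the pathway, 2 of 49 tested on their brightest set were lower on the persimmon peel diet and 0 were higher, with 13 (26.5%) at an unadjusted p under 0.05; over all 9174 genes tested in this way 1.93% were lower, 0.469% higher and 16.3% at an unadjusted p under 0.05. The median log2 difference of the 49 was -0.07, against 0.014 over all genes. Without persimmon peel rat 2 there were 5 calls, the further 3 being Cry2 (0.80, adjusted p = 0.0103), Dbp (0.61, adjusted p = 0.0266) and Sqle (-0.60, adjusted p = 0.0281); Dbp is named after its value was seen. Of 12 tested regulators 1 was lower: Ppara, the receptor for fatty acids that also acts on bile acid genes, gave 99.0, 68.6, 89.0 and 121 in control rats 1 to 4 and 44.2, 42.9, 53.0 and 29.3 in persimmon peel rats 1 to 4, with no overlap (log2 difference -1.16, SE 0.21, limma adjusted p = 0.00658). The persimmon peel signals lay near the lowest tested mean of 34.4, and background was not measured here. Nr1i3 (CAR), a receptor for drugs, was at -0.47 (limma adjusted p = 0.116). Its signals were 337 to 361 in control rats 1 to 3, 624 in control rat 4 and 273 to 304 in persimmon peel rats. Without control rat 4 the Nr1i3 difference was -0.26 (limma adjusted p = 0.235), and the diets did not overlap with or without that rat. The median of the regulators was -0.17, and 6 of the 12 (50%) had an unadjusted limma p under 0.05, against 16.3% of all genes. Of these 6, Hnf4a was higher, at 0.23 (limma adjusted p = 0.127) with overlap between diets, and the others were lower. The lists were chosen with earlier results of these data known, so such shares of a list are descriptions only. The feedback genes Nr0b2 (SHP) and Nr1h4 (FXR) did not pass, at -0.31 (limma adjusted p = 0.237) and 0.23 (limma adjusted p = 0.485), and both overlapped between diets.

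Of 10 tested transporters 1 was lower. Slco1a1, an organic anion carrier of the sinusoidal membrane, gave 1334, 1168, 1210 and 1521 in control rats 1 to 4 and 845, 986, 885 and 1001 in persimmon peel rats 1 to 4, so every persimmon peel rat was below every control rat (log2 difference -0.49, SE 0.10, limma adjusted p = 0.0114). The Slco1a1 call was kept in 16 of 17 other settings. It was lost only without persimmon peel rats 1 and 3 together, its 2 lowest values, where the difference was -0.39 (limma adjusted p = 0.134). Slc10a1 (NTCP), the main bile acid uptake carrier, was at -0.18 (limma adjusted p = 0.157), with no overlap between diets. Of the 10 transporters 2 (20%) had an unadjusted limma p under 0.05. Among 7 tested genes of other synthesis steps 0 passed, and 3 of the 7 (42.9%) had an unadjusted p under 0.05, against 16.3% of all genes. Scp2, a peroxisomal thiolase and sterol carrier, was at -0.18 (adjusted p = 0.128) in its brighter set and at -0.23 (adjusted p = 0.0552) in its dimmer set. The brighter Scp2 set did not overlap between diets. Hsd17b4, the next enzyme of side chain oxidation after Acox2, was at -0.26 (adjusted p = 0.143).

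Genes that supply cholesterol or set the daily rhythm, which is strong for Cyp7a1, gave 0 calls in limma's test. For cholesterol supply 5 of 10 genes were tested, 0 had an unadjusted p under 0.05, and Sqle and Srebf2 were at -0.36 (adjusted p = 0.366) and 0.12 (adjusted p = 0.582). Of 15 tested clock genes 2 (13.3%, against 16.3% of all genes) had an unadjusted p under 0.05: the repressor Cry2 at 0.65 (adjusted p = 0.0588) in its brighter set and -0.33 (adjusted p = 0.432) in its dimmer set, of which the brighter passed under quantile normalization (0.67, adjusted p = 0.0417), with array weights (0.59, adjusted p = 0.049) and with the replicate block (adjusted p = 0.0233), and Clock at -0.39 (adjusted p = 0.0763) and -0.23 (adjusted p = 0.351). In the brighter sets of Cry2 and Clock the diets did not overlap. The median of the clock genes was -0.0089, and 0.014 under quantile normalization. The hour at which livers were taken is not given in the sources used here.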

How the data were processed

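Liver RNA of 8 rats was measured on 1-colour arrays, 4 per diet by the labels, and each array was treated as 1 animal. The deposited table gives 1 linear intensity for each of 31099 probe sets, which the authors made with MAS5 per the submitters' processing notes. Its version, scaling target and detection calls are not stated there. Gene names came from the platform annotation, updated by gene number through a RefSeq table (GRCr8) used for names only. The values were taken to log2 with no pseudocount; array medians spanned 0.24 in log2, below the 0.5 at which they would have been centred. The 57 control sets and the dimmest 50% were left out, which left 15521 sets. Diets were compared with limma (version 3.58.1, R 4.3.3; lmFit, then eBayes with trend, two-sided, Benjamini-Hochberg over all tested sets, called under 0.05), and every SE is limma's moderated one. Means and SDs are of linear signals unless given as log2 differences. Arrays have no read depth, and their number limits the precision. Limma's p-values set the diet difference against the spread between rats within a diet, moderated with the other sets of like intensity. On simulated data for this comparison (15521 sets, 200 of them changed, 50 at each of 4 fold sizes), 6 of 50 sets changed by 1.25-fold, 29 of 50 by 1.5-fold, 42 of 50 by 2-fold and 48 of 50 by 3-fold were recovered, with 5 unchanged sets called. The simulated noise was normal and independent between sets, with no deviation shared over an array, so these counts need not hold for the real arrays.

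All 13 member sets are named, and of each pathway list every called gene, or the 2 with the smallest p where fewer than 2 were called, the brightest gene of each cell type list, and the 4 genes most like Cyp7a1. Dbp, Hnf4a, Nr0b2 and Nr1h4 are given with values outside this rule. The members and lists were chosen with earlier results of these data known. Other settings tried were a pseudocount of 16, median centring, quantile normalization, the brightest 30%, no filter, no trend, array weights, the replicate block and each array left out; leaving out persimmon peel arrays 1 and 3 together was added after seeing the data. All 8 columns were used. Same-numbered arrays were checked for shared deviations from their diet means (r between -0.08 and 0.05 over 4 pairs), so the numbers were not taken as pairs. Protein sequences were not used here.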

Additional observations from a re-analysis of the deposited data

Results flagged for a closer look

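In control rats, the Cyp7a1 signal of rat 2, 290.618 units, lay far from the other 3, which were between 783 and 813. The gap took up 0.963 of the range of log2 signals, above Dixon's 95% critical value for a group of 4. The Acox2 signal of control rat 4, 4754 units, lay above the other 3 control rats, with a gap of 0.836 of the range. These were 2 of 26 groups of 4 that were checked, and chance alone marks about 1 in 20. Without control rat 2 the Cyp7a1 log2 difference between diets was -0.23 (limma adjusted p = 0.658).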

How the results depend on the processing

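The count of members called, 1 set, stayed at 1 with a pseudocount of 16, was 2 with the replicate block, and was 0 under quantile normalization, median centring, no filter, the brightest 30%, no trend, array weights and without persimmon peel arrays 1 and 3; with single arrays left out it ranged from 0 to 1. Over all probe sets 769 were called, 467 with no filter, 77 without persimmon peel arrays 1 and 3, and 308 to 1211 with single arrays left out. The 769 calls were 703 lower; with quantile normalization 596 of 867 were lower. Calls among other pathway genes, 2, were 3 under quantile normalization, array weights and the replicate block (each adding Cry2), 1 with the brightest 30% (Ppara was no longer tested), 1 without persimmon peel arrays 1 and 3, and 2 to 5 with single arrays left out. The replicate block gave 656 calls in all, and the 2 members called were Akr1c14 sets 1370708_a_at (adjusted p = 0.0095) and 1396933_s_at (adjusted p = 0.0324); only pair 3 correlated best with its own number in both diets. Signs turned for 3 members near 0, none of them called: Cyp27a1 was -0.0019 with median centring, -0.0065 with array weights and -0.058 to 0.084 with single arrays left out; Cyp7a1 was -0.00021 with array weights, -0.033 without persimmon peel rats 1 and 3 and -0.23 to 0.33 with single arrays left out; Hsd3b7 was 0.0063 under quantile normalization and -0.13 to 0.025 with single arrays left out. The other 9 tested sets kept their sign in all 17 other settings. The cause of these shifts was not tested. The Akr1c14 pairs against 1370563_at kept their sign in 11 other settings (-0.40 to -0.22 and -0.26 to -0.15), and the Akr1d1 pair did too (-0.43 to -0.29); with 1 array left out the smallest exact p is 0.0571, so these fits cannot pass. Background was not measured here; Cyp7b1 lay below and the persimmon peel signals of Ppara near the lowest mean signal tested (34.4).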
